A study of Homo sapiens with 9 samples.

Results

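TNFRSF9, which encodes the costimulatory receptor CD137, was examined in HAL-01 leukemia cells together with 9 other TNF receptor genes: TNFRSF1A, TNFRSF1B, TNFRSF13B, TNFRSF13C, TNFRSF17, TNFRSF21, CD27, CD40 and LTBR. TNFRSF9 was chosen by its estimated counts, which were lower in the enhancer KO libraries than in the controls, so its difference from the control is described below and is not tested. The 10 genes were found by their GENCODE release 44 symbols among 62700 genes. Of these 10, 7 passed the filter on low counts, TNFRSF9 and 6 others, out of 14436 genes that passed it in all. TNFRSF13B, TNFRSF17 and LTBR did not pass.

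HAL-01 is a B cell acute lymphoblastic leukemia line that carries the t(17;19) translocation and makes the fusion transcription factor TCF3::HLF. All libraries came from HAL-01 cells with stable Cas9 and GFP expression, collected at day 13. In the enhancer KO libraries the lentiviral guide, sgRNA_96 or sgRNA_97, was aimed at the HLF motif inside the MEF2C enhancer that TCF3::HLF binds, and in the controls it was the scrambled guide SCR1. Each of the 3 groups had 3 libraries, numbered 1, 3 and 4. The share of cells that were edited, and which bases were cut, were not analysed here, and the cells of a library are a transduced population of a single cell line. No label says that the replicates were separate cultures, so p-values measure the spread between these libraries. Total counts ran from 15212462 to 29777361 a library.

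Receptors of this family sit on the cell surface and are engaged by trimeric ligands of the TNF family. Most recruit TRAF adaptor proteins, which lead to the IκB kinase complex and to NF-κB transcription factors, while those with a death domain can also activate caspases. In B cells, TNFRSF13C is the main receptor for the survival factor BAFF, CD40 receives help from T cells, CD27 marks memory cells, and TNFRSF13B and TNFRSF17 belong to mature B cells and plasma cells. TNFRSF9 is best known from activated T cells and NK cells, where NF-κB induces it.

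The promoter of TNFRSF9 is shown because TNFRSF9, chosen for its lower counts in the enhancer KO libraries, had the largest difference among these genes. It was also the only promoter of those examined with a match to the NF-κB consensus. It covers 250 bases before the RefSeq start of the gene, at chr1:7940840-7941089 of GRCh38.p14, read along the minus strand. Capitals mark the bases that match the NF-κB consensus.

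TNFRSF9 promoter: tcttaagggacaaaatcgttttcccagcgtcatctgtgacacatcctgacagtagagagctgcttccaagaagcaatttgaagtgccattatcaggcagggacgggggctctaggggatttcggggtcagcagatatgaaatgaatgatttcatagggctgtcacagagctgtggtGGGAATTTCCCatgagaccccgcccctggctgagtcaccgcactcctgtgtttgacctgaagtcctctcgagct

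The consensus of 10 bases matched at 2 overlapping positions, with first bases 74 and 73 bases before the start. RefSeq promoters were at hand for 7 of the 10 genes, namely TNFRSF9, TNFRSF1A, TNFRSF1B, TNFRSF13B, TNFRSF21, CD27 and LTBR. Searched on both strands, the NF-κB consensus was present in 9.96% of 35114 promoters of this length. The MEF2 consensus was present in 2.80% of them and the PAR bZIP core, the kind of motif that HLF binds, in 1.98%, and neither was in any of the 7. These matches are descriptions of sequence and say nothing about binding in these cells.

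MEF2C, the gene of the targeted enhancer, gives the check of the labels. It stood at 560, 559 and 536 CPM (counts over the TMM-scaled library size, times 1000000) in SCR1 replicates 1, 3 and 4. In sgRNA_96 it was at 495, 498 and 510 CPM and in sgRNA_97 at 553, 505 and 495 CPM. The sgRNA_97 replicate 1 library overlapped the controls and the other 5 KO libraries lay below them. The log2 fold change was -0.12 (SE 0.04, adjusted p = 0.0620, edgeR quasi-likelihood test). Of 17 alternative settings only 2 gave an adjusted p under 0.05 for MEF2C. These were 0.0145 without sgRNA_97 replicate 1 and 0.0265 with DESeq2 on all libraries. The highest was 0.213, from limma on log2(TPM + 1) without a filter.

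TNFRSF9 (ENSG00000049249.10) occupies positions 7915871 to 7943165 of chromosome 1, minus strand. Its estimated counts were 74, 70 and 28 in SCR1 replicates 1, 3 and 4. They were 12, 9 and 8 in the sgRNA_96 libraries and 12, 17 and 3 in the sgRNA_97 libraries. All 6 enhancer KO libraries thus held fewer counts than any control.

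The same order held after scaling to library size. In SCR1, TNFRSF9 was at 2.51, 3.99 and 1.32 CPM. In sgRNA_96 it was at 0.757, 0.438 and 0.434 CPM. In sgRNA_97 it was at 0.794, 0.895 and 0.178 CPM. The lowest control exceeded the highest KO library, and the controls spread widely, with replicate 3 highest and replicate 4 lowest. The means were 2.61 ± 1.34 CPM (SD, n = 3) in SCR1 and 0.583 ± 0.275 CPM (SD, n = 6) in enhancer KO. The fitted log2 fold change was -2.15 (SE 0.40) for enhancer KO, -2.26 (SE 0.51) for sgRNA_96 and -2.04 (SE 0.50) for sgRNA_97, where both guides share the same 3 control libraries. Pooled over libraries, 172 counts in the controls gave 2.52 CPM (exact Poisson 95% interval 2.16 to 2.93), and 61 counts in the KO libraries gave 0.577 CPM (0.441 to 0.741). These intervals cover counting error only and leave out the spread between libraries. They are no test of the difference, since TNFRSF9 was chosen for it. In bulk RNA, fewer cells that express the gene and less RNA in each cell cannot be told apart.

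Between the guides TNFRSF9 could be tested, since its choice did not use that contrast. The log2 difference of sgRNA_97 from sgRNA_96 was 0.22 (SE 0.58, adjusted p = 1.00, edgeR quasi-likelihood test). With 29 counts in all for sgRNA_96 and 32 for sgRNA_97, even a difference between the guides well above that SE could have been missed.

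**Figure D1:**
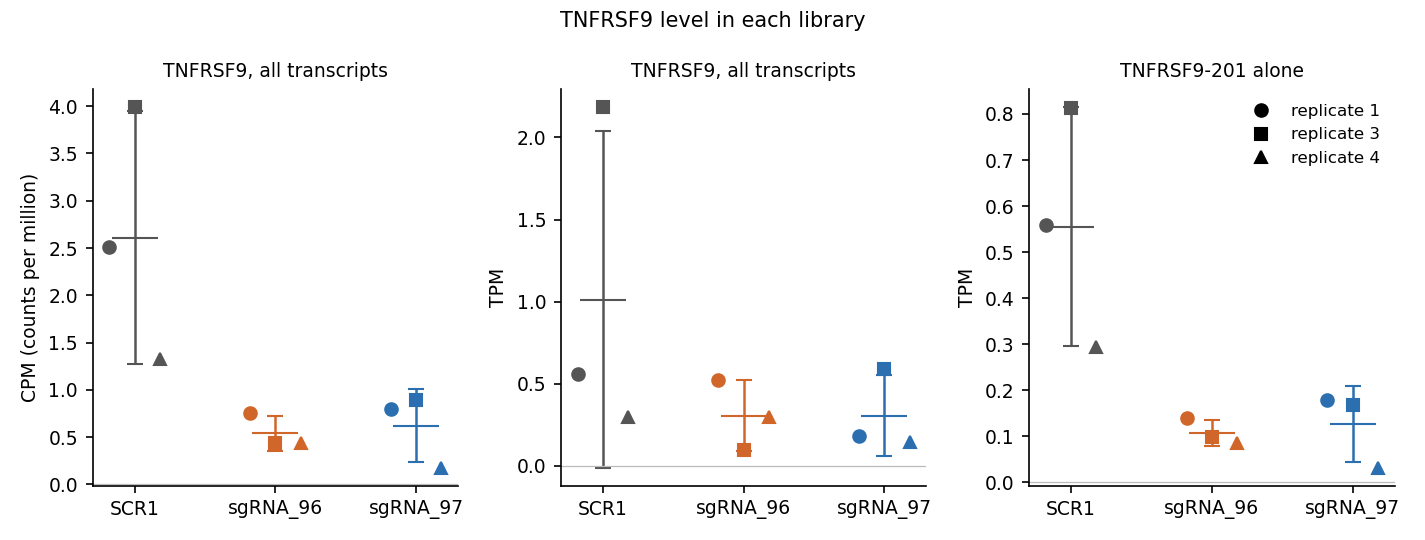
TNFRSF9 level in each library (points, shaped by replicate number) with the mean and SD of each group of 3 (bars), in CPM and TPM for the whole gene and in TPM for the transcript TNFRSF9-201 alone. In CPM the controls lay between 1.32 and 3.99 and all KO libraries at or below 0.895, while in TPM of the whole gene the groups overlapped.

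TPM, which divides by transcript length, gave a different picture for the whole gene. TNFRSF9 was at 0.559, 2.19 and 0.294 TPM in SCR1, at 0.525, 0.0976 and 0.296 TPM in sgRNA_96 and at 0.179, 0.592 and 0.146 TPM in sgRNA_97. The groups overlapped on this scale. SCR1 replicate 4 lay below 3 of the KO libraries, and SCR1 replicate 1 lay below sgRNA_97 replicate 3. Only 2 annotated transcripts of the gene received counts. TNFRSF9-201, with 8 exons and 5872 bases, held 95.4% of the control counts and 89.0% of the KO counts. The remainder went to TNFRSF9-204, which has 5 exons, 607 bases and an upstream first exon, and which shares 486 of its bases with TNFRSF9-201.

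The short transcript weighs heavily in TPM although it received few counts. In SCR1 replicate 3, 8.0 estimated counts on TNFRSF9-204 made up 1.37 of the 2.19 TPM. In sgRNA_96 replicate 1, 2.1 counts made up 0.385 TPM, and in sgRNA_97 replicate 3, 2.7 counts made up 0.423 TPM. The other libraries with any were sgRNA_96 replicate 4 and sgRNA_97 replicate 4, with 1.3 and 0.6 counts. For TNFRSF9-201 alone the groups did not overlap on either scale. Its level was 0.559, 0.813 and 0.294 TPM in SCR1 and between 0.0322 and 0.179 TPM in the 6 KO libraries. These shares are Salmon's division of reads that fit both transcripts, and the limit lies in the few reads behind them. On a fit with offsets for gene length the TNFRSF9 log2 fold change was -1.74, and on log2(TPM + 0.1), where the pseudocount compresses the change of a low gene, it was -1.21.

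Of 28 annotated genes within 500 kb of TNFRSF9 on either side, 9 were tested, and 1 rose and 1 fell. This was close to the shares over all genes tested, 10.1% higher and 10.6% lower. PARK7, the nearest tested gene upstream, encodes the redox-sensitive chaperone DJ-1 and fell by 0.20 on the log2 scale (SE 0.04, adjusted p = 0.00486). RERE, which encodes a transcriptional corepressor, rose by 0.22 (SE 0.05, adjusted p = 0.00546). On log2(TPM + 0.1) neither call was kept, with adjusted p of 0.0778 for PARK7 and 0.0537 for RERE.

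Across the 9 libraries, the genes whose log2 CPM ran most closely with that of TNFRSF9 among 12960 genes ranked were NPC1, which exports cholesterol from lysosomes, MAP1B, which binds microtubules, and RBBP8, which resects broken DNA ends. Pearson's r was 0.958, 0.957 and 0.950. DNAJC1, a chaperone of the endoplasmic reticulum, and SLAIN1, which promotes microtubule growth, followed with 0.950 and 0.949. These values share the split between control and KO libraries, rest on CPM already scaled to library size, and are given without a test. For deviations from the group means, r was 0.906, 0.885, 0.854, 0.897 and 0.832 in the same order. That is no test either, since these genes were picked for their high r. Their own log2 fold changes were small beside that of TNFRSF9, between -0.26 and -0.17.

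Of the other 9 receptor genes, 6 were tested in enhancer KO against SCR1, and 3 rose and none fell (20.7% of all genes tested were called, 10.1% higher and 10.6% lower). The risers were TNFRSF13C, TNFRSF1B and TNFRSF1A. Their median log2 fold change was 0.28 over the 6, against 0.0028 over all genes tested. Against SCR1, sgRNA_96 had 2 of the 6 called higher, TNFRSF13C and TNFRSF1A (11.2% of all genes called, 5.78% higher and 5.41% lower). sgRNA_97 also had 2, TNFRSF13C and TNFRSF1B (15.1% of all genes called, 7.35% higher and 7.76% lower). Between the guides none of the 7 tested genes was called by edgeR or by DESeq2 (0.0208% of all genes called by edgeR), and the lowest unadjusted p among them was 0.0711, for CD27.

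**Figure D2:**
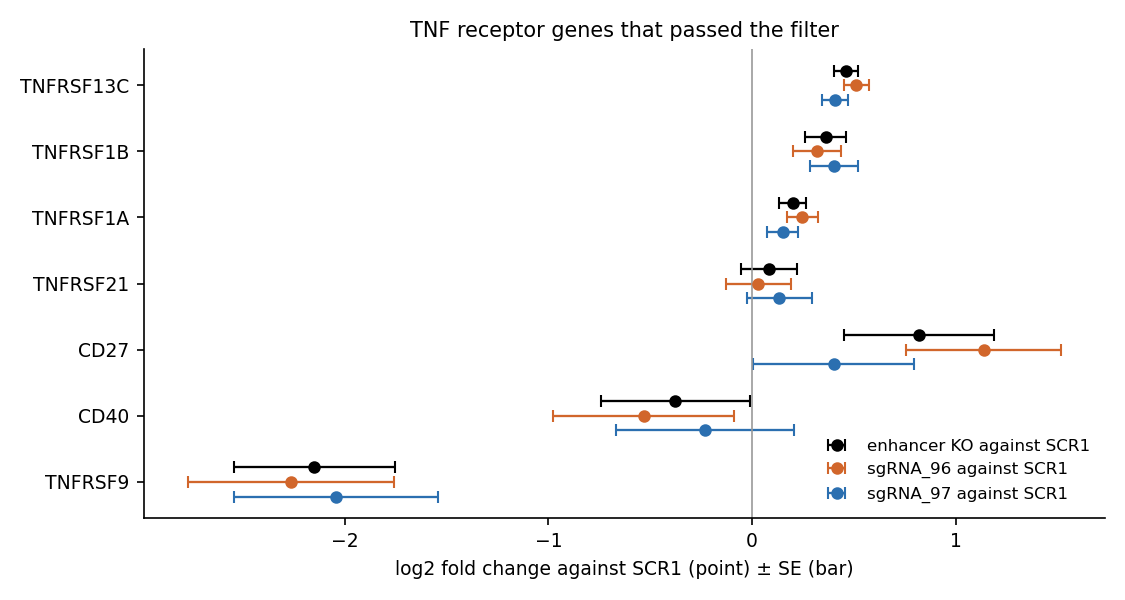
Log2 fold change against SCR1 (points) with its SE (bars) for the 7 receptor genes that passed the filter, for enhancer KO and for each guide. TNFRSF13C, TNFRSF1B and TNFRSF1A lay above 0 in all 3 comparisons, and TNFRSF9 lay near -2 in each.

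TNFRSF13C, the BAFF receptor (ENSG00000159958.7), occupies positions 41922032 to 41926806 of chromosome 22, minus strand, and has a single annotated transcript. It was at 69.6, 63.7 and 75.2 CPM in SCR1. In sgRNA_96 it was at 100.9, 98.2 and 98.6 CPM, and in sgRNA_97 at 90.5, 95.0 and 91.2 CPM. Every KO library lay above every control, and among all genes tested 20.3% did not overlap, 10.1% higher and 10.2% lower. It rose by 0.46 on the log2 scale (SE 0.06, adjusted p = 4.43e-05), by 0.51 (SE 0.06, adjusted p = 1.00e-04) with sgRNA_96 and by 0.41 (SE 0.06, adjusted p = 6.35e-04) with sgRNA_97. The call was kept in 17 of 17 alternative settings, with log2 fold changes between 0.40 and 0.52. The guides differed from each other by -0.11 (SE 0.06, adjusted p = 1.00).

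TNFRSF13B and TNFRSF17 are the other receptors of the BAFF and APRIL system. TNFRSF13B, on chromosome 17, received 1 to 5 counts a library, 10 in the controls together and 8 in the KO libraries together, and gave no basis for a comparison. TNFRSF17, on chromosome 16, received 0 counts in all 9 libraries, which allows a level of up to 0.102 CPM in the deepest library and 0.199 CPM in the shallowest, at 3 counts. Their ligand BAFF, encoded by TNFSF13B, also lay below the filter. TNFSF13B had 4, 1 and 1 counts in SCR1, 3, 7 and 13 in sgRNA_96 and 4, 13 and 7 in sgRNA_97. In CPM all 6 KO libraries lay above the highest control, 0.136 CPM, the lowest of them at 0.189 CPM, and this was not tested. APRIL, encoded by TNFSF13, had a log2 fold change of -0.05 (SE 0.24, adjusted p = 0.920).

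TNFRSF1A and TNFRSF1B encode the receptors for TNF and lymphotoxin α. TNFRSF1A, the form with a death domain (ENSG00000067182.9), occupies positions 6328757 to 6342114 of chromosome 12, minus strand. It was at 50.1, 44.9 and 48.0 CPM in SCR1, at 61.7, 58.0 and 50.3 CPM in sgRNA_96 and at 51.2, 52.4 and 55.3 CPM in sgRNA_97. All KO libraries lay above the controls, sgRNA_96 replicate 4 only just above SCR1 replicate 1. TNFRSF1A rose by 0.20 on the log2 scale (SE 0.07, adjusted p = 0.0445), with adjusted p of 0.0486 for sgRNA_96 and 0.205 for sgRNA_97. The call was lost in 11 of 17 alternatives. The adjusted p was 0.180, 0.119 and 0.0745 without SCR1 replicates 3, 4 and 1. It was 0.0986 and 0.0607 without sgRNA_96 replicates 3 and 1 and 0.0788 without sgRNA_97 replicate 4.

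TNFRSF1B, which lacks a death domain and recruits TRAF2 (ENSG00000028137.19), occupies positions 12166991 to 12209228 of chromosome 1, plus strand. It was at 21.6, 18.9 and 18.4 CPM in SCR1, at 27.8, 25.5 and 20.7 CPM in sgRNA_96 and at 23.7, 24.5 and 30.0 CPM in sgRNA_97. Only sgRNA_96 replicate 4 overlapped the controls, lying below SCR1 replicate 1. TNFRSF1B rose by 0.36 on the log2 scale (SE 0.10, adjusted p = 0.0185), with adjusted p of 0.0939 for sgRNA_96 and 0.0326 for sgRNA_97. The call was kept in 11 of 17 alternatives, and the adjusted p was 0.0977 without SCR1 replicate 4 and 0.0672 without SCR1 replicate 3.

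CD27, CD40 and TNFRSF21 were expressed at low levels and none was called. CD27, on the plus strand of chromosome 12, was at 1.05, 0.855 and 0.425 CPM in SCR1, at 1.32, 2.29 and 1.57 CPM in sgRNA_96 and at 1.06, 1.05 and 1.01 CPM in sgRNA_97. The sgRNA_96 libraries were the highest 3, and the sgRNA_97 libraries overlapped SCR1. The log2 fold change was 0.82 (SE 0.37, adjusted p = 0.130) for enhancer KO, 1.14 (SE 0.38, adjusted p = 0.0663) for sgRNA_96 and 0.40 (SE 0.40, adjusted p = 0.545) for sgRNA_97. The exons of CD27 overlap CD27-AS1 on the opposite strand, which rose by 0.40 (SE 0.11, adjusted p = 0.0158). The sources used here do not state whether counting used strand, so reads from the pair cannot be told apart. They also overlap those of TAPBPL on the same strand, where strand does not separate reads. TAPBPL had a log2 fold change of 0.09 (SE 0.09, adjusted p = 0.562).

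CD40, on chromosome 20, had 27, 12 and 15 counts in SCR1 and 4 to 16 counts in the KO libraries. Its log2 fold change of -0.38 (SE 0.37, adjusted p = 0.512) was no larger than about its error. TNFRSF21, a death domain receptor on chromosome 6 also called DR6, averaged 6.16 ± 1.12 CPM in the controls (SD, n = 3) and 6.49 ± 0.420 CPM in enhancer KO (SD, n = 6). Its log2 fold change was 0.08 (SE 0.14, adjusted p = 0.712), and without SCR1 replicate 1 it was -0.06 (adjusted p = 0.823). LTBR, the lymphotoxin β receptor, lies between TNFRSF1A and CD27 on chromosome 12 and received 0 counts in all 9 libraries.

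**Figure D3:**
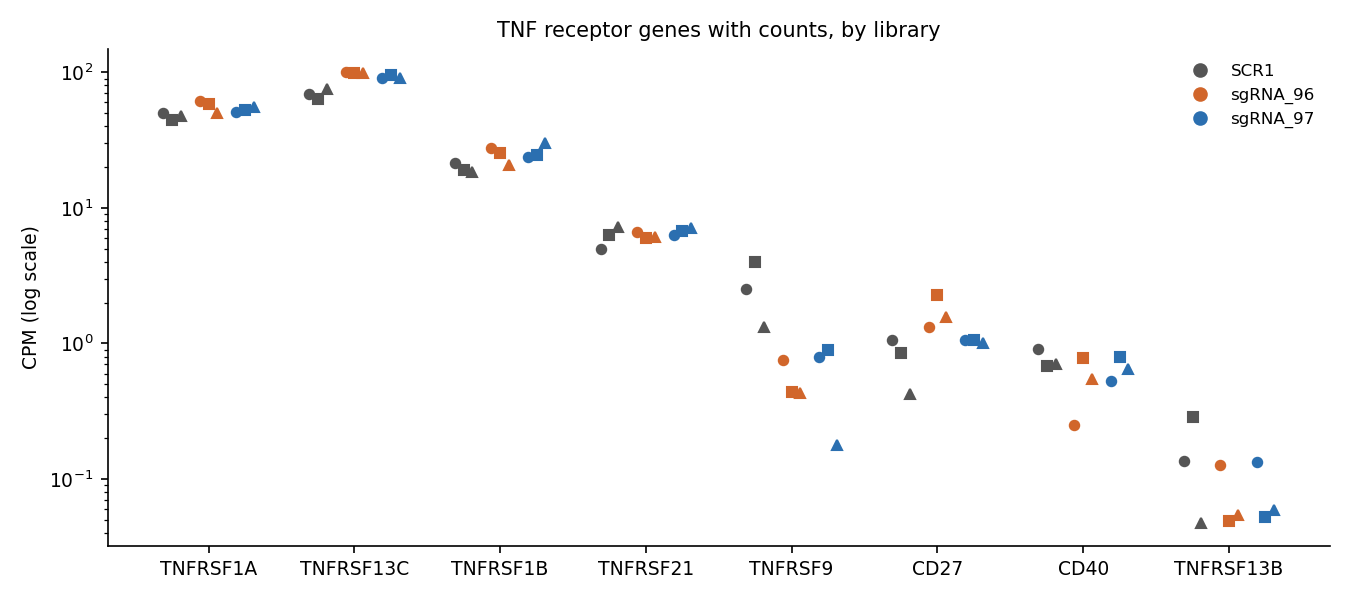
CPM (log axis) of the 8 receptor genes with counts in each library, coloured by group and shaped by replicate number (circle 1, square 3, triangle 4), in the order of their TPM in SCR1. TNFRSF9, which was chosen for its lower counts in the KO libraries, showed the widest gap between control and KO libraries.

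Levels of different genes can be compared in TPM. In SCR1, TNFRSF1A stood highest at 30.2 ± 1.1 TPM (SD, n = 3), followed by TNFRSF13C at 23.7 ± 1.58 TPM and TNFRSF1B at 7.36 ± 0.487 TPM, and the ranges of these 3 did not overlap. TNFRSF21 at 2.31 ± 0.424 TPM, TNFRSF9 at 1.01 ± 1.02 TPM, CD27 at 0.989 ± 0.421 TPM and CD40 at 0.853 ± 0.220 TPM followed, and each overlapped the next in this order. TNFRSF13B was at 0.166 ± 0.130 TPM. TNFRSF9 thus stood among the less abundant receptor genes in the control libraries.

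The rest of the family was described from a list of 19 other TNF receptor genes, of which 10 were tested, 3 rose and 1 fell (against 10.1% higher and 10.6% lower over all genes tested), with a median log2 fold change of 0.02. TNFRSF10B and TNFRSF10D encode the death receptor DR5 and a decoy receptor for the ligand TRAIL. TNFRSF10B rose by 0.29 (SE 0.05, adjusted p = 6.28e-04), with means of 70.9 ± 2.18 CPM in SCR1 (SD, n = 3) and 86.9 ± 3.62 CPM in enhancer KO (SD, n = 6). TNFRSF10D rose by 0.35 (SE 0.08, adjusted p = 0.00484), from 14.7 ± 0.948 to 18.8 ± 0.819 CPM. Both were called with each guide and in 17 of 17 alternatives. TNFRSF14, the receptor HVEM, rose by 0.47 (SE 0.10, adjusted p = 0.00363), from 18.7 ± 2.82 to 26.0 ± 2.48 CPM. Its call was kept in 14 of 17 alternatives. In TPM the groups overlapped, with SCR1 replicate 1 at 19.4 TPM and sgRNA_97 replicate 1 at 18.7 TPM.

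TNFRSF8, which encodes CD30, fell by 0.57 on the log2 scale (SE 0.16, adjusted p = 0.0221). It was at 12.1, 9.86 and 10.9 CPM in SCR1, at 10.4, 6.47 and 7.70 CPM in sgRNA_96 and at 6.16, 5.26 and 8.61 CPM in sgRNA_97. Of the KO libraries only sgRNA_96 replicate 1 overlapped the controls. TNFRSF8 ends at position 12144207 of chromosome 1, next to TNFRSF1B, which starts at 12166991 and rose. The adjusted p for TNFRSF8 was 0.132 without SCR1 replicate 1, 0.0684 without SCR1 replicate 4 and 0.0518 without sgRNA_96 replicate 3.

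Among 18 TNF family ligands, 9 were tested, 1 rose and 2 fell (against 10.1% higher and 10.6% lower over all genes), with a median log2 fold change of -0.05. TNF, the ligand of TNFRSF1A and TNFRSF1B, was at 5.50, 5.07 and 7.42 CPM in SCR1, at 4.41, 3.02 and 4.83 CPM in sgRNA_96 and at 2.71, 3.69 and 4.34 CPM in sgRNA_97. All KO libraries lay below the controls, and TNF fell by 0.65 (SE 0.19, adjusted p = 0.0232) while the transcripts of both its receptors were higher. The adjusted p for TNF was 0.175 without SCR1 replicate 4, 0.0562 without SCR1 replicate 1 and 0.0509 without sgRNA_96 replicate 3. TNFSF10, which encodes TRAIL, rose by 0.46 (SE 0.14, adjusted p = 0.0261). It was called with neither guide alone (adjusted p = 0.0517 for sgRNA_96 and 0.104 for sgRNA_97). Its adjusted p was 0.135 and 0.113 without SCR1 replicates 1 and 4, and 0.0549 and 0.0517 without sgRNA_96 replicates 3 and 4. TNFSF12, which encodes TWEAK and was named after its values were seen, fell by 1.16 (SE 0.38, adjusted p = 0.0396) at 5 to 16 counts in the KO libraries. It was called with neither guide alone (adjusted p = 0.184 for sgRNA_96 and 0.0633 for sgRNA_97). The sgRNA_96 replicate 1 library, at 1.01 CPM, overlapped SCR1 replicate 3, at 0.912 CPM.

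The ligands of the remaining receptors were not called. TNFSF9, the ligand of TNFRSF9, averaged 2.91 ± 0.443 CPM in the controls (SD, n = 3) and 2.58 ± 0.506 CPM in enhancer KO (SD, n = 6), a log2 fold change of -0.16 (SE 0.21, adjusted p = 0.641). CD70, the ligand of CD27, was at 64.7 ± 1.84 CPM in SCR1 and 70.3 ± 5.13 CPM in enhancer KO (0.12, SE 0.06, adjusted p = 0.173). LTA and LTB, neighbours of TNF on chromosome 6, had log2 fold changes of -0.58 (SE 0.26, adjusted p = 0.128) and 0.35 (SE 0.19, adjusted p = 0.209). CD40LG received no counts.

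**Figure D4:**
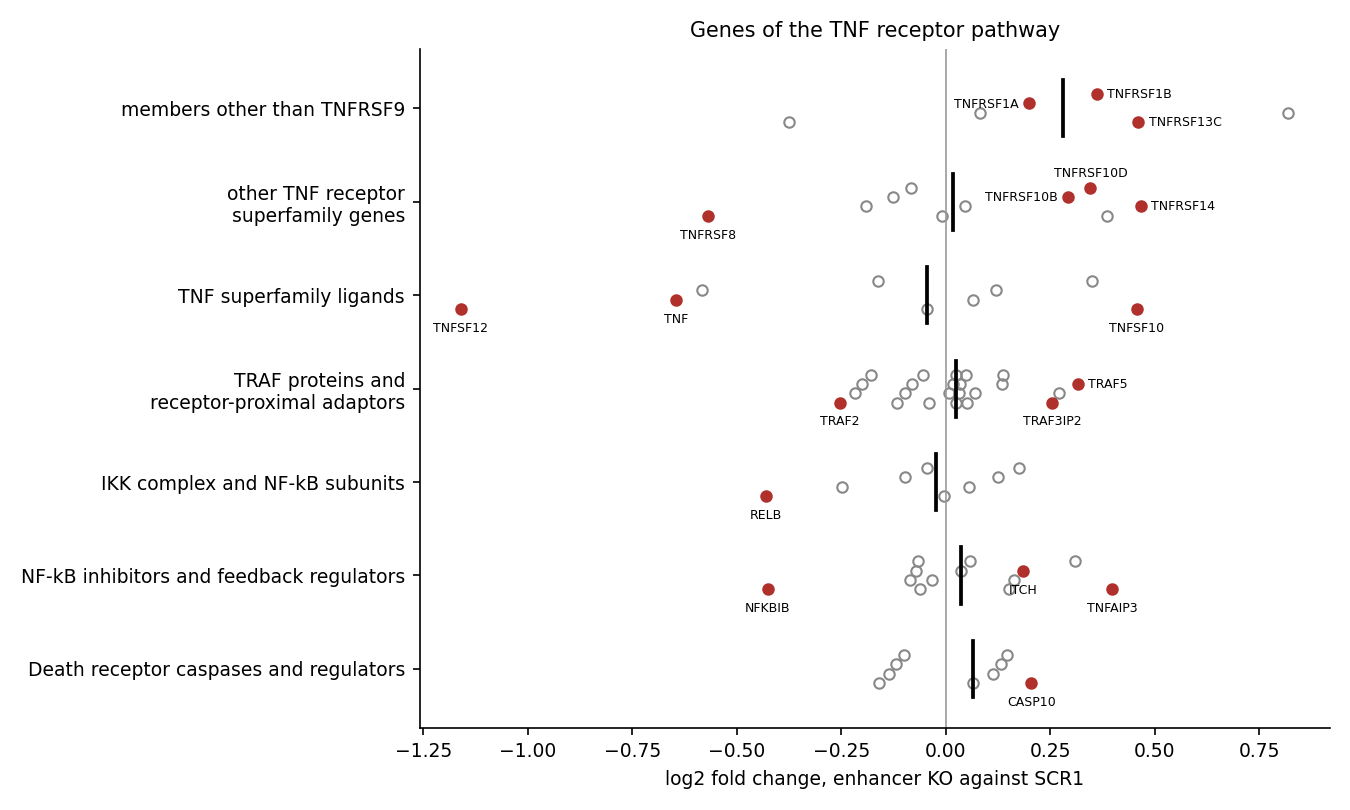
Log2 fold change, enhancer KO against SCR1, of each tested gene in 7 lists of the TNF receptor pathway, with filled points for genes called by edgeR (adjusted p under 0.05), open points for the others and a black bar for the median of each list. Medians of the lists other than the receptor genes studied here lay between -0.05 and 0.07.

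Of 24 TRAF proteins and receptor-proximal adaptors, 23 were tested, 2 rose and 1 fell (10.1% of all genes tested were called higher and 10.6% lower), with a median log2 fold change of 0.02. TRAF5, an adaptor of CD27, CD40 and LTBR, rose by 0.32 (SE 0.07, adjusted p = 0.00484), or 0.0562 without SCR1 replicate 1. TRAF3IP2, which couples IL-17 receptors to NF-κB, rose by 0.26 (SE 0.05, adjusted p = 0.00299). TRAF2, an adaptor of TNFRSF9 and TNFRSF1B, fell by 0.25 (SE 0.08, adjusted p = 0.0368), with means of 43.3 ± 3.82 CPM in SCR1 (SD, n = 3) and 36.5 ± 3.99 CPM in enhancer KO (SD, n = 6). Its call was lost in 11 of 17 alternatives, with adjusted p of 0.222 and 0.113 without SCR1 replicates 1 and 4, 0.0831 and 0.0646 without sgRNA_96 replicates 3 and 4, and 0.0686, 0.0702 and 0.0543 without sgRNA_97 replicates 1, 3 and 4.

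All 8 genes of the IκB kinase complex and the NF-κB subunits were tested, none rose and 1 fell (against 10.1% higher and 10.6% lower over all genes), with a median log2 fold change of -0.02. RELB, a subunit of the noncanonical pathway, was at 8.56, 6.33 and 5.77 CPM in SCR1 and between 4.84 and 5.61 CPM in the 6 KO libraries. In CPM the groups did not overlap, and the controls spread more widely than the KO libraries, with SCR1 replicate 1 highest. In TPM the groups overlapped, with SCR1 at 5.35, 4.09 and 4.92 TPM and sgRNA_96 replicate 3 at 5.16 TPM. RELB fell by 0.43 (SE 0.14, adjusted p = 0.0386) and was called with neither guide alone (adjusted p = 0.138 for sgRNA_96 and 0.0852 for sgRNA_97). The call was kept in 6 of 17 alternatives. Without SCR1 replicate 1 the log2 fold change of RELB was -0.23 with an adjusted p of 0.345. Leaving out any 1 of 5 KO libraries, all but sgRNA_96 replicate 1, gave an adjusted p between 0.0523 and 0.0672.

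Of 13 inhibitors and feedback regulators of NF-κB, all tested, 2 rose and 1 fell (against 10.1% higher and 10.6% lower over all genes), with a median log2 fold change of 0.04. TNFAIP3, the deubiquitinase A20 and itself a target of NF-κB, was at 80.1, 85.1 and 67.4 CPM in SCR1, at 94.6, 103.1 and 101.0 CPM in sgRNA_96 and at 105.8, 105.4 and 102.5 CPM in sgRNA_97. All KO libraries lay above the controls, and TNFAIP3 rose by 0.40 (SE 0.06, adjusted p = 4.15e-04). NFKBIB, which encodes IκBβ, was at 46.8, 42.1 and 46.2 CPM in SCR1 and between 31.0 and 36.3 CPM in the KO libraries. It fell by 0.43 (SE 0.06, adjusted p = 2.11e-04), again without overlap. TNFAIP3 and NFKBIB were called with each guide and in 17 of 17 alternatives, so that within this list an inhibitor of NF-κB signalling rose while another fell.

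ITCH, a ubiquitin ligase that acts with A20, rose by 0.18 (SE 0.06, adjusted p = 0.0313). Of 10 caspases and regulators of death receptor signalling, 9 were tested and CASP10, an initiator caspase, alone rose, by 0.20 (SE 0.06, adjusted p = 0.0299), where 10.1% of all genes tested rose. The median of that list was 0.07. CASP10 was called with neither guide alone (adjusted p = 0.0881 for sgRNA_96 and 0.0852 for sgRNA_97). ITCH and CASP10 were each called in 7 of 17 alternatives. For ITCH the adjusted p was 0.123 and 0.161 without SCR1 replicates 1 and 3, 0.0599 and 0.0556 without sgRNA_96 replicates 3 and 4, and 0.0587 and 0.0593 without sgRNA_97 replicates 1 and 4. For CASP10 it was 0.118, 0.0908 and 0.0660 without SCR1 replicates 1, 3 and 4, 0.0702 without sgRNA_96 replicate 3, and 0.0521 and 0.0522 without sgRNA_97 replicates 1 and 3.

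**Figure D5:**
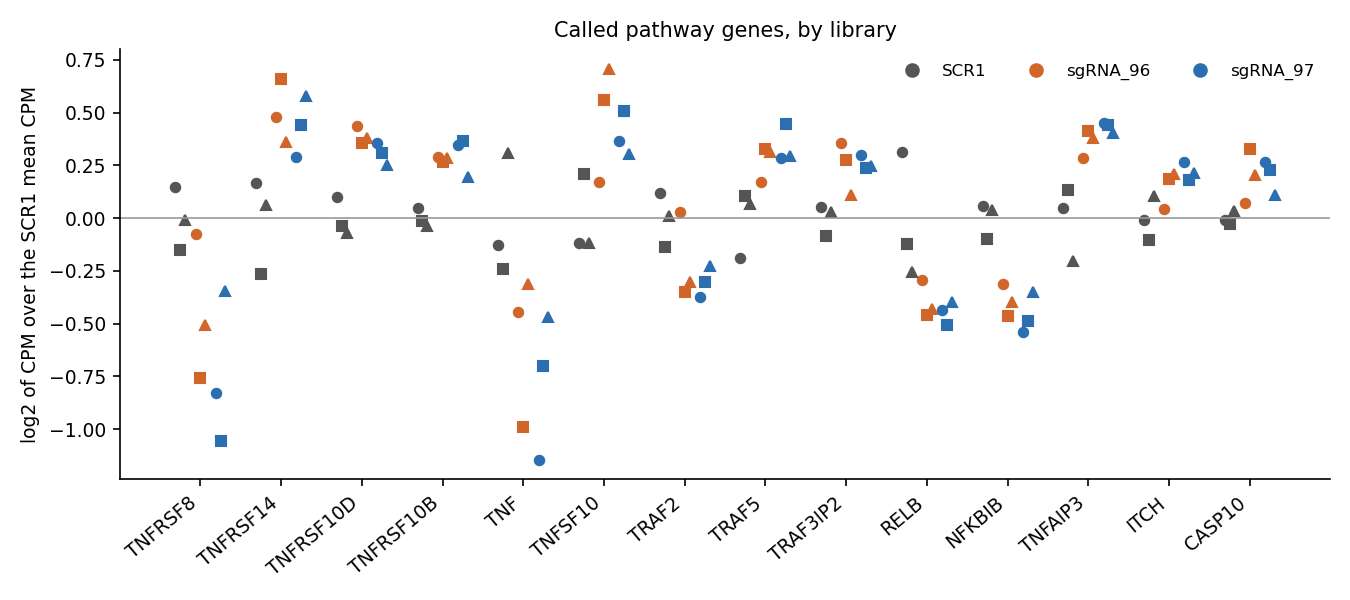
Log2 of the CPM of each library over the SCR1 mean CPM, for the 14 called pathway genes named by the rule, coloured by group and shaped by replicate number (circle 1, square 3, triangle 4). TNFRSF8, TRAF2, TNFSF10 and ITCH overlapped, and the other genes shown separated control from KO libraries. All 14 were picked because they were called, and 20.3% of all genes tested did not overlap.

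Markers of other cell types were read beside these genes, again against 10.1% of all genes tested called higher and 10.6% lower. Of 12 T cell and NK cell markers, 2 were tested and CD3D, CD3E, CD3G, KLRD1 and GZMB were at 0 in every library. Their summed level was 62.5 to 65.1 CPM in SCR1 and 48.5 to 59.3 CPM in enhancer KO, in the direction of TNFRSF9, with TRAC (log2 fold change -0.24, adjusted p = 0.00994) and NKG7 (-0.30, adjusted p = 0.0430) lower. TRAC, with means of 53.4 CPM in SCR1 and 45.3 CPM in enhancer KO, made up most of the sum. Markers below the filter went both ways, with CD4 at means of 0.0461 and 0.306 CPM and PRF1 at 0.332 and 0.0598 CPM. All 12 B lineage markers were tested, and RAG1, DNTT, MME and BLNK rose. The other 8 were not called, and 5 of them, CD79A, CD79B, PAX5, EBF1 and IGLL1, had log2 fold changes below 0, between -0.18 (IGLL1, adjusted p = 0.0543) and -0.02 (PAX5, adjusted p = 0.696). The summed level of the 12 was 5401 to 5575 CPM in SCR1 and 6023 to 6397 CPM in enhancer KO, in the direction of TNFRSF13C. The largest rises in CPM were those of DNTT, with means of 2072 CPM in SCR1 and 2473 CPM in enhancer KO, RAG1, with 275 and 501 CPM, and MME, with 468 and 661 CPM. The 5 markers with log2 fold changes below 0 took away from the sum, IGLL1 the most, with 923 and 813 CPM.

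Of 10 myeloid markers 5 were tested, with FCGR3A and ELANE at 0. ITGAM, MPO and CD33 rose, S100A8 fell and CSF1R was not called (log2 fold change -0.21, adjusted p = 0.124). The sum was 35.1 to 37.0 CPM in SCR1 and 39.4 to 47.1 CPM in enhancer KO. Of 8 mesenchymal markers 2 were tested, with COL1A2, COL3A1, LUM, DCN and THY1 at 0. ENG rose, and PDGFRB was not called (log2 fold change -0.13, adjusted p = 0.321). COL1A1, below the filter, had means of 0.341 CPM in SCR1 and 0.129 CPM in enhancer KO. The sums were 142 to 152 CPM in SCR1 and 172 to 202 CPM in enhancer KO. ENG, with means of 126 and 168 CPM, made up most of them. The part of any of these markers in the differences of the receptor genes was not tested.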

How the data were processed

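RNA of 9 HAL-01 libraries was sequenced from TruSeq libraries. Per the study's methods and the submitters' processing notes, reads were trimmed, aligned with STAR to GRCh38 (hg38) and quantified with Salmon 1.10.1. The authors deposited a table of estimated counts per transcript, not normalized, and a table of TPM, scaled by the authors for transcript length and library total to 1000000. Both held 252835 transcripts of 62700 genes for 9 libraries. The annotation release was not given in the sources used here, and every transcript matched GENCODE release 44, whose coordinates are printed. Salmon divides ambiguous reads by likelihood, so overlapping genes rest on that division.

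Estimated counts were summed per gene, rounded, filtered by filterByExpr (minimum count 10) and scaled by TMM. In R 4.3.3, edgeR 4.0.16 gave quasi-likelihood tests, and their p-values were adjusted by Benjamini-Hochberg across the 14436 genes that passed, with 0.05 as the threshold. Where no tool is named, an adjusted p is from edgeR. Enhancer KO against SCR1 set 6 libraries against 3, and each guide came from a fit with 3 groups. An SE is that of the log2 fold change. DESeq2 1.42.0, which the study's methods name, and limma 3.58.1 on log2(TPM + 1) and log2(TPM + 0.1) were alternatives.

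The receptor genes and the lists were chosen with earlier results of these data known. Named from each list were up to 3 largest rises and falls among called genes with a mean of at least 1 CPM, and the ligands of the receptors. Between replicates the chi-square of the counts was 4.36 to 8.82 per degree of freedom, more than sampling noise gives, and all 9 were counted as separate.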

Additional observations from a re-analysis of the deposited data

Results flagged for a closer look

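Of 23 genes checked over the 6 enhancer KO libraries, 2 had a library whose gap to the others was large for the range of the group, and chance alone would give about 1.15 of 23. TRAF2 was at 44.26 CPM in sgRNA_96 replicate 1 and between 33.49 and 37.0 CPM in the other KO libraries. MEF2C was at 552.8 CPM in sgRNA_97 replicate 1 and between 494.9 and 510.1 CPM in the other KO libraries.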

How the results depend on the processing

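The counts of calls, the TNFRSF9 log2 fold changes and 28 single genes were recomputed under 17 alternatives. The marker genes, TNFSF12, CD27-AS1, TAPBPL and the ligands that were not called were not recomputed. Of 475 log2 fold changes of the 28 genes, 359 kept direction and side of the threshold, 113 lost their call, 2 gained one and 1 reversed (TNFRSF21, -0.063 without SCR1 replicate 1, to 0.21 without SCR1 replicate 4). The 2984 genes called in enhancer KO (1458 higher, 1526 lower) became 1524 with length offsets, 844 on log2(TPM + 1) (509 higher, 335 lower), 782 on log2(TPM + 0.1) (495 higher, 287 lower) and 700 on log2(TPM + 1) without a filter. Leaving out single libraries gave 1503 (without SCR1 replicate 1) to 3516, and 1813 without SCR1 replicate 4. Receptor genes called numbered 1, not 3, in enhancer KO and 1, not 2, with each guide under length offsets and all 3 TPM fits, and TNFRSF13C was the one kept in enhancer KO. Leaving out single libraries gave 1 to 3 in enhancer KO (1 without SCR1 replicate 3 or 4), 1 to 3 with sgRNA_96, 1 to 2 with sgRNA_97 and 0 to 0 between the guides. TNFRSF9 was chosen for its fall, so the sign of its log2 fold change under the alternatives is no support for that fall. The value was negative in all 17. On log2(TPM + 1) with or without a filter it was -0.52, -0.52 and -0.53 for enhancer KO, sgRNA_96 and sgRNA_97. On log2(TPM + 0.1) it was -1.21, -1.20 and -1.22 in the same order. It ranged from -2.47 to -1.73, -2.58 to -1.84 and -2.43 to -1.61 over the libraries left out. Same-numbered libraries did not deviate together (correlations from -0.066 to 0.055). Whether the numbers mark matched cultures cannot be told from this. With the replicate block, 2936 genes and 2 receptor genes were called in enhancer KO, where TNFRSF1A had an adjusted p of 0.0502, 1 with sgRNA_96 and 2 with sgRNA_97. With 3 to 74 counts a library, depth limits TNFRSF9, and for CD40 DESeq2 gave no adjusted p.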
